A study of Mus musculus with 12 samples.

Results

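The genes described here are 43 markers of macrophages and other leukocytes, taken by symbol from a list that includes the receptor gene *Csf1r*, the pan-leukocyte gene *Ptprc*, the complement *C1q* genes and *Mrc1*. All 43 were found among the 54532 Ensembl genes of the E14.5 expression table. The table covers 12 bulk RNA-seq libraries of fluorescence-sorted mouse limb bud cells, taken at E14.5 (days of embryonic development). Males carrying Prrx1-Cre were crossed with females that had a Rosa26 allele with a stop cassette before bovine *Creb5* and GFP, or before tdTomato. The 6 iCreb5 libraries came from cells expressing HA-tagged bovine Creb5 together with GFP. The 6 tdTomato libraries came from cells expressing the red fluorescent protein and served as the control. Both groups carried Prrx1-Cre, which is driven by a *Prrx1* enhancer active in limb bud mesenchyme. Creb5 is a transcription factor of the CREB/ATF family. The transgene, the fluorescent reporter and the sorting colour differ together between the groups and cannot be told apart. By their labels, litter 3 supplied 3 libraries to each group, and litters 4, 5 and 6 supplied 1 library to each. Libraries are named by group and by the suffix in their label. The design text counts 6 independent litters, whereas these labels name 4 (litters 3 to 6), and the labels were followed here. The batch label changes with the litter, and these cannot be told apart.

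Macrophages of the embryo arise from yolk sac and fetal liver precursors, settle in nearly every tissue, and clear dying cells, including those of the regressing interdigital tissue of the limb. Their lineage depends on the transcription factor PU.1, encoded by *Spi1*, and on the growth factor receptor encoded by *Csf1r*. They carry phagocytic receptors that signal through adaptors with immunoreceptor tyrosine-based activation motifs (ITAMs), make the C1q proteins of the complement cascade, and digest engulfed material in lysosomes. None of these genes is a marker of the Prrx1 mesenchyme for which the cells were sorted.

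The promoters of these genes were read for the purine-rich core GAGGAAG, of the kind that PU.1 and other ETS factors bind, and for motifs of the CREB/ATF and AP-1 families to which Creb5 belongs. RefSeq promoter windows (GRCm38.p6, 250 bases before to 50 after the start) were given for 33 of the 43 genes. GAGGAAG, on either strand, was in 13 of the 33 windows (39.4%) and in 3658 of 27025 windows of all genes (13.5%). The CREB/ATF palindrome TGACGTCA was in 0 of 33 and in 507 of all windows (1.88%). The AP-1 type motif TGANTCA was in 3 of 33 (9.09%; *Trem2*, *Cd68* and *Cybb*) and in 2144 of all windows (7.93%). A match describes letters in the window and says nothing of binding. The 100 bases before the start are shown, 5′ to 3′ on the strand of the gene, for 6 members that hold the purine-rich core there, from the receptor, lysosomal and tissue-resident genes, which is in capitals and reads CTTCCTC where it lies on the opposite strand.
Trem2, chr17:48346301-48346400, plus strand: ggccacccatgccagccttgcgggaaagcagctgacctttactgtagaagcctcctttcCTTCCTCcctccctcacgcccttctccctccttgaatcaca
Fcgr3, chr1:171059404-171059503, minus strand: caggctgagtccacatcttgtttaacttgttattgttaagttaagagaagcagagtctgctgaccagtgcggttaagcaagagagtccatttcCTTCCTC
Laptm5, chr4:130913216-130913315, plus strand: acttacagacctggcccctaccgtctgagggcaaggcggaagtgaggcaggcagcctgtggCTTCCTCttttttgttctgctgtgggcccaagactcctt
Mrc1, chr2:14229314-14229413, plus strand: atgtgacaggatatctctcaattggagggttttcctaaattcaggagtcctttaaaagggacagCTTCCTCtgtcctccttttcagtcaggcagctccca
Pf4, chr5:90772335-90772434, plus strand: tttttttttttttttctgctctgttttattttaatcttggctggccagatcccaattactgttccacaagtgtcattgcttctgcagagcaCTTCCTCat
F13a1, chr13:37050245-37050344, minus strand: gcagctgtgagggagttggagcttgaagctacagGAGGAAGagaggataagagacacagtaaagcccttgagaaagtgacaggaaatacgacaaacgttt
Within the 100 bases shown, the core began 41 (*Trem2*), 7 (*Fcgr3*), 39 (*Laptm5*), 36 (*Mrc1*), 9 (*Pf4*) and 66 (*F13a1*) bases before the start. The full windows held another core 168 bases before the start of *Mrc1* and 18 after that of *F13a1*.

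Values are the authors' normalised read counts. The libraries held 9.02 to 53.3 M reads (1 M is 1000000), with medians of 29.1 M in iCreb5 and 23.2 M in tdTomato, and 3 reads corresponded to a normalised count of 1.48 to 8.38 depending on the library. Genes were tested where at least 6 libraries had a normalised count of 10, which left 16733 genes. The test was limma on log2(value + 1), and a gene was called where its Benjamini-Hochberg adjusted p was under 0.05. Log2 changes are iCreb5 minus tdTomato on that scale and are given with their standard error, and folds are derived from them. Adding 1 shrinks the fold of low values, but where a gene is at or near 0 in some libraries the mean of log values can also exceed the change fitted to reads, as for *Ptprc* (4.49 against 4.02 with edgeR). Nothing says that the 3 libraries a group has from litter 3 came from separate embryos, and p-values therefore measure a spread that may in part be technical.

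Macrophage and leukocyte markers were higher in the iCreb5 libraries. Of the 39 members tested, 35 were called higher and 0 lower, against 3.87% of all genes tested called higher and 2.85% called lower. The members and the other lists below were chosen with earlier results of these data known. Such contrasts with all genes are therefore a description and not independent support. The 4 tested members that were not called were *Csf2rb*, *Itgam*, *Itgb2* and *Cd33*, and all 4 had positive log2 changes. *Fcgr1*, *Mpeg1*, *Cd163* and *Timd4* did not reach the minimum for testing. Some tested members reached it only through the iCreb5 libraries. Among the 28 with a normalised count of at least 10 in every tdTomato library, 27 were called higher. The median log2 change was 2.38 over the 39 members and 0.0038 over all genes tested. All 39 changes were positive. In bulk RNA, more cells of a type and more RNA per cell cannot be told apart.

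**Figure D1:**
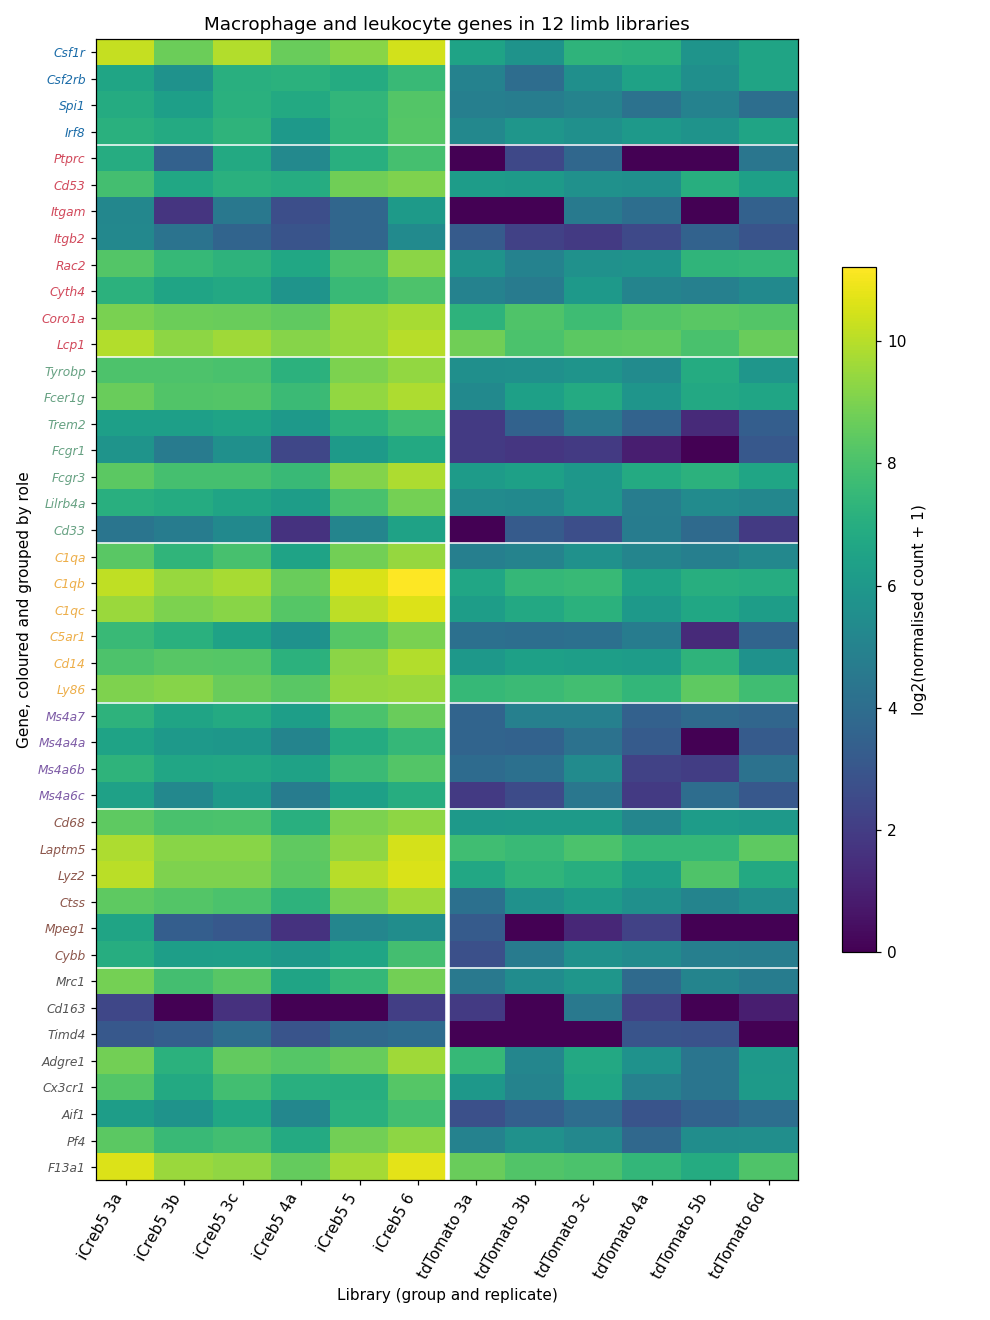
Normalised counts of the 43 members in the 12 libraries on a colour scale of log2(value + 1), with members grouped by role. Brighter cells are higher: iCreb5 6 is the brightest library and 4a the dimmest of its group, and 3 of the tdTomato libraries have *Ptprc* at 0.

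Summed over the 43 genes, the normalised count was lowest at 6306, had a median of 12799 and was highest at 25794 in the iCreb5 libraries. In the tdTomato libraries the corresponding sums were 2531, 2963 and 3334. The lowest iCreb5 sum was 1.89 times the highest tdTomato sum, so the groups did not overlap. These sums were 0.0253% to 0.102% of the library total in iCreb5 and 0.00997% to 0.0129% in tdTomato, and the group means differed 4.66-fold. The groups also did not overlap for 27 of the 43 members taken singly, all with the iCreb5 libraries higher. Of all genes tested, 2.83% did not overlap in that direction and 1.92% in the other. The 27 include *Timd4*, which was not tested and was separated only by 6.46 in iCreb5 4a against 6.43 in tdTomato 4a. The tdTomato libraries were not free of these transcripts. Per kilobase of exon, mean tdTomato levels ran from 0.34 for *Ptprc* to 123 for *C1qb*, which also had the highest mean level per kilobase in iCreb5, 1069.

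The lineage receptors and regulators numbered 4, of which 3 were called, with a median log2 change of 1.90. *Csf1r* encodes the receptor for CSF1 and IL-34, on which most tissue macrophages depend for survival. Its normalised count was lowest at 396, had a median of 783 and was highest at 1381 in iCreb5, and was 52.4, 91.1 and 155 in tdTomato. Every iCreb5 library lay above every tdTomato library, with 4a and 3b lowest in iCreb5 and 6 and 3a highest. The log2 change was 3.02 ± 0.35 (8.09-fold, limma adjusted p = 6.04e-05, n = 6 and 6). *Spi1* was 152 ± 77.8 (SD, n = 6) against 24.9 ± 6.68, with a log2 change of 2.48 ± 0.31 and no overlap of the groups.

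*Irf8*, a transcription factor of the monocyte and dendritic cell lineages, changed less. Its lowest, median and highest normalised counts were 64.6, 147 and 303 in iCreb5 and 36.3, 56.0 and 93.9 in tdTomato. The groups overlapped, since the lowest iCreb5 library fell inside the tdTomato range. Its log2 change was 1.30 ± 0.32 (limma adjusted p = 0.0198), and this call was lost in 5 of the 27 alternative settings. *Csf2rb*, the shared signalling chain of the receptors for GM-CSF, IL-3 and IL-5, was 123 ± 48.2 against 53.2 ± 30.6, a log2 change of 1.32 ± 0.41 that was not called (adjusted p = 0.0696). With litter as a replicate block its adjusted p was 0.0172. Without iCreb5 3b, tdTomato 4a or tdTomato 6d it was 0.0346, 0.0469 and 0.0399. Its reads are difficult to separate from those of the neighbouring paralog *Csf2rb2*.

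Of the 8 leukocyte surface, adhesion and cytoskeleton genes, 6 were called, with a median log2 change of 1.62. *Ptprc* (ENSMUSG00000026395, chromosome 1, minus strand, mm10) encodes CD45, the tyrosine phosphatase on the surface of all nucleated blood cells. Its normalised count was 10.3, 118 and 241 at the lowest, median and highest iCreb5 library, and 0, 2.22 and 20.4 in tdTomato. The lowest iCreb5 library, 3b, lay below tdTomato 6d (20.4) and 3c (12.3), while the other 5 lay above all tdTomato libraries. tdTomato 3a, 4a and 5b were at 0, where a count of 3 reads would have been 8.38, 2.76 and 4.56, for counting error only. Over each group the gene had 865 reads in iCreb5 and 40 in tdTomato. The log2 change was 4.49 ± 0.89 (limma adjusted p = 0.00483). With 3 of 6 tdTomato libraries at 0 its size depends on the pseudocount, and the ratio of the group means was 17.7.

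*Coro1a* and *Lcp1* had the smallest log2 changes among the called members. *Coro1a*, encoding the actin regulator coronin 1A, had normalised counts of 359, 450.1 and 864 in iCreb5 and 151, 283 and 323 in tdTomato. The groups did not overlap, and the log2 change was 1.04 ± 0.24 (2.05-fold, limma adjusted p = 0.0138). *Lcp1*, encoding the actin bundler L-plastin, had 571, 745 and 1038 in iCreb5 against 253, 342 and 438 in tdTomato. It too showed no overlap, with a log2 change of 1.20 ± 0.18 (adjusted p = 0.000534).

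The remaining genes of that group were more variable. *Cyth4*, a cytohesin that activates ARF GTPases, was 145 ± 79.0 against 36.7 ± 14.4, with a log2 change of 1.84 ± 0.35. The tetraspanin gene *Cd53* had a log2 change of 1.57 ± 0.39 (adjusted p = 0.0218), which became 0.0504 without tdTomato 3c and 0.0543 without tdTomato 4a. *Rac2*, a small GTPase of blood cells, had 1.66 ± 0.46 (adjusted p = 0.0379). That call was the least stable of the set and was lost in 13 of 27 settings. These included the removal of iCreb5 3a, 3b, 5 or 6 or of tdTomato 3a, 3b, 3c or 4a, 8 libraries in all, with adjusted p from 0.0598 to 0.0874. The integrin genes were scarce. *Itgam*, the alpha chain CD11b, was 24.0 ± 24.4 against 8.19 ± 9.89 (log2 change 1.95 ± 0.98, adjusted p = 0.309), and its beta chain *Itgb2* was 20.9 ± 14.4 against 6.05 ± 3.05 (1.48 ± 0.50, adjusted p = 0.105).

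**Figure D2:**
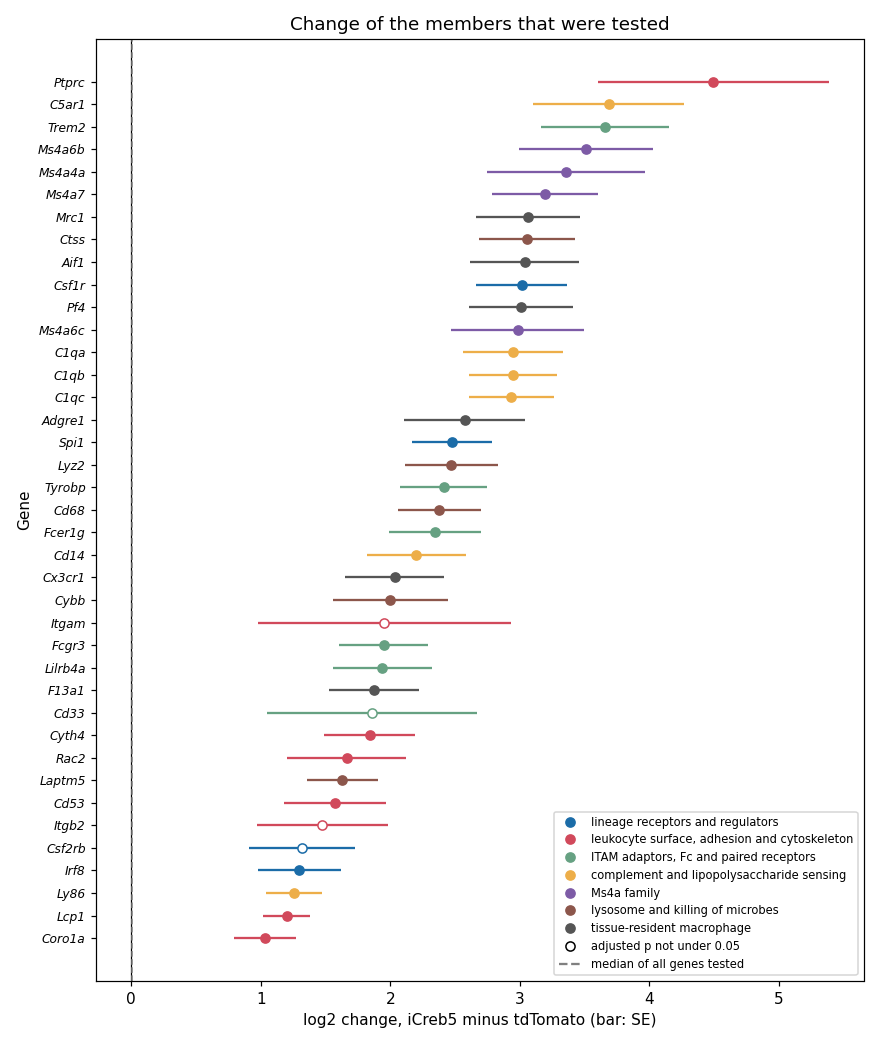
Log2 change of each tested member, iCreb5 minus tdTomato on the log2(value + 1) scale, with bars of 1 standard error, sorted by size and coloured by role; open symbols are members not called. All 39 estimates lie above 0, from 1.04 for *Coro1a* to 4.49 for *Ptprc*.

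Among the ITAM adaptors, Fc and paired receptors, 5 of the 6 tested were called and the median log2 change was 2.15. *Trem2*, whose promoter is shown above, encodes a lipid and apoptotic-cell receptor that signals through the adaptor encoded by *Tyrobp*. Its normalised counts were 65.7, 85.5 and 211 in iCreb5 and 1.52, 9.84 and 21.9 in tdTomato. There was no overlap, and iCreb5 5 and 6 were the high libraries. Its log2 change was 3.66 ± 0.49 (12.6-fold, limma adjusted p = 0.000196). *Fcer1g*, the common gamma chain of Fc receptors, had the highest mean count of the group, at 199, 345 and 914 in iCreb5 and 39.1, 88.9 and 115 in tdTomato. Its groups did not overlap either, and the log2 change was 2.35 ± 0.36. *Tyrobp*, encoding DAP12, was 352 ± 195 against 61.6 ± 28.6, a log2 change of 2.41 ± 0.34.

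Of the receptors in this group beside *Trem2*, *Fcgr3* and *Lilrb4a* were called higher. *Fcgr3*, an activating IgG receptor, was 413 ± 276 against 94.8 ± 31.8 (1.95 ± 0.34, adjusted p = 0.00179). *Lilrb4a*, an inhibitory receptor whose reads may be shared with its close paralog *Lilrb4b*, had a log2 change of 1.94 ± 0.38. *Fcgr1*, the high-affinity IgG receptor, was not tested. It had 400 reads in iCreb5 and 17 in tdTomato, and when all genes with any read were fitted its log2 change was 3.63 with an adjusted p of 0.00872. *Cd33*, a sialic acid-binding lectin, had 2.15, 29.2 and 86.3 in iCreb5 and 0, 6.94 and 24.8 in tdTomato. Its groups overlapped and it was not called (1.86 ± 0.81, adjusted p = 0.230).

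All 6 complement and lipopolysaccharide-sensing genes were called, with a median log2 change of 2.94. The 3 C1q chain genes lie side by side on chromosome 4 (*C1qb* at 136880129 to 136886187, *C1qc* at 136889804 to 136893065 and *C1qa* at 136895917 to 136898803, mm10). *C1qb* had normalised counts of 404, 994 and 2374 in iCreb5 and 88.2, 125 and 186 in tdTomato, without overlap. The log2 changes of *C1qa*, *C1qb* and *C1qc* were 2.95 ± 0.39, 2.95 ± 0.34 and 2.93 ± 0.33. *C5ar1*, the receptor for the complement fragment C5a, had 51.7, 166 and 497 against 1.52, 16.1 and 24.8. Its log2 change, 3.69 ± 0.58 (12.9-fold, limma adjusted p = 0.000787), was second only to that of *Ptprc* among the tested members.

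The proportions of the C1q chains were also read in each library, a comparison made after the values were seen. Per kilobase of exon, *C1qb* spanned 371 to 2182 across the iCreb5 libraries, a 5.88-fold range. The ratio of *C1qb* to *C1qc* per kilobase stayed between 2.35 and 2.69 in the same libraries. In tdTomato, where *C1qb* per kilobase spanned 81.1 to 171, the ratio ran from 2.23 to 2.93, so the ratios of the groups overlapped. The ratio of *C1qb* to *C1qa* was less even, from 3.19 to 4.27 in iCreb5 and from 2.55 to 5.36 in tdTomato, where its 2.10-fold range was as wide as that of *C1qb* itself (2.11-fold).

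The endotoxin genes differed from the complement genes in that their groups overlapped. *Cd14*, the lipopolysaccharide co-receptor, was 436 ± 301 against 83.5 ± 38.2 (2.20 ± 0.38, adjusted p = 0.00167). *Ly86*, encoding MD-1, the partner of the Toll-like protein CD180, had 324, 558 and 740.1 in iCreb5 and 171, 211 and 347 in tdTomato. iCreb5 4a lay below tdTomato 5b, and the log2 change was 1.26 ± 0.22 (2.39-fold, adjusted p = 0.0017). In tdTomato, library 5b was highest for both genes, at 158 for *Cd14* and 347 for *Ly86*.

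The *Ms4a* genes, which encode tetraspanning membrane proteins and lie together on chromosome 19, had the highest median log2 change of any role, 3.28. All 4 were called and none overlapped between groups. Only 1 of the 4 had a normalised count of at least 10 in every tdTomato library. The rank of this role therefore rests in part on low control values. *Ms4a6b* had normalised counts of 87.3, 131 and 295 in iCreb5 and 3.04, 15.4 and 41.1 in tdTomato (3.51 ± 0.52, limma adjusted p = 0.000441). *Ms4a7*, a marker of tissue macrophages, had 76.5, 132 and 396 against 10.1, 12.9 and 28.8 (3.19 ± 0.41, adjusted p = 0.000131). *Ms4a6c* had 24.8, 75.1 and 127 against 2.76, 6.19 and 20.6 (2.98 ± 0.51, adjusted p = 0.00154). The log2 change of *Ms4a4a* was 3.36 ± 0.61. Members of this family resemble each other in sequence, so the split of reads among them is uncertain.

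Of the lysosomal and microbicidal genes, all 5 tested were called, with no overlap of the groups and a median log2 change of 2.38. *Ctss*, encoding the lysosomal protease cathepsin S, had 153, 321 and 752 in iCreb5 and 16.8, 46.7 and 69.9 in tdTomato (3.06 ± 0.37, limma adjusted p = 8.39e-05). *Laptm5*, a lysosomal membrane protein of blood cells, had 353, 629 and 1418 against 175, 205 and 349. The margin for *Laptm5* was narrow, and its log2 change, 1.63 ± 0.27, was the smallest of the group. *Cd68*, a lysosomal glycoprotein, had 2.38 ± 0.32 and *Lyz2*, the macrophage lysozyme, 2.47 ± 0.36, with the reservation that *Lyz1* is nearly identical in sequence. *Cybb*, the catalytic subunit of the phagocyte NADPH oxidase, was 112 ± 62.2 against 29.2 ± 15.5 (adjusted p = 0.0108). *Mpeg1*, encoding the pore-forming protein perforin-2, was not tested, with a normalised count of 31.7 ± 34.2 against 2.24 ± 3.33.

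Tissue-resident macrophage genes were called in all 6 tested cases, with a median log2 change of 2.79. *Mrc1*, encoding the mannose receptor CD206, had normalised counts of 91.6, 274 and 464 in iCreb5 and 13.8, 28.5 and 57.6 in tdTomato. No iCreb5 library fell within the tdTomato range, and the log2 change was 3.06 ± 0.40 (8.36-fold, limma adjusted p = 0.000156). *F13a1*, the A chain of coagulation factor XIII, was the most abundant of the group at 381, 781 and 1707 against 119, 269 and 402. Its ranges met, since iCreb5 381 was below tdTomato 402, and the log2 change was 1.87 ± 0.35.

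*Aif1* and *Pf4*, encoding the actin-binding protein IBA1 and the chemokine CXCL4, had log2 changes of 3.04 ± 0.42 and 3.01 ± 0.40. *Adgre1*, encoding F4/80, was 407 ± 215 against 76.5 ± 59.5 (2.58 ± 0.47, adjusted p = 0.00239), and tdTomato 3a (181) exceeded iCreb5 3b (144). *Cx3cr1*, the fractalkine receptor, had 2.03 ± 0.38. The remaining genes were at the edge of detection. *Timd4*, a phosphatidylserine receptor of long-lived resident macrophages, had 86 reads in iCreb5 and 11 in tdTomato, where 4 of 6 libraries were at 0. Its groups were barely apart, with a lowest normalised count of 6.46 in iCreb5 and a highest of 6.43 in tdTomato. *Cd163*, the haemoglobin scavenger receptor, was the only member with a lower mean in iCreb5. It was 1.59 ± 1.87 against 4.89 ± 8.48, from 13 and 22 reads, and most of the tdTomato mean came from library 3c (21.9). No difference in *Cd163* was detectable at this depth.

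The difference was examined by litter. In litter 3 alone, with 3 libraries a group, 29 of the 39 tested members were called higher (2.36% of all genes) and 0 lower (1.75%), with a median log2 change of 2.20. In litters 4 to 6, compared within litter, 32 were called higher (1.91%) and 0 lower (2.20%), with a median of 2.59. *Cybb* was called in neither set, and *Ptprc* was called in litters 4 to 6 (adjusted p = 0.00554) but not in litter 3 (0.106). The change itself differed between the litter sets for 0 of the 39 members after adjustment (limma interaction, 0.00% of all genes; lowest member adjusted p = 0.501). At an unadjusted p under 0.05 it differed for 5, *Rac2*, *Lilrb4a*, *Ms4a7*, *Ms4a6b* and *Adgre1*, and for 8.96% of all genes. Within the single pairs, the median log2 difference over members was 1.50 in litter 4, 2.59 in litter 5 and 3.58 in litter 6, and it was positive for 39, 42 and 43 of the 43 members.

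Within the iCreb5 group the members moved together from library to library. Library 6 was highest for 38 of the 39 tested members, the exception being *Mrc1*, which was highest in 3a. Library 4a was lowest for 32 and library 3b for the other 7. The median deviation of the members from their group mean, on the log2(value + 1) scale, was 1.13 in library 6, 0.51 in 5, 0.17 in 3a, −0.24 in 3c, −0.47 in 3b and −1.11 in 4a. The same median over all genes stayed within 0.023 of 0 in every library. The first principal component held 79.5% of the members' variance in iCreb5 and 41.7% in tdTomato. Over the 741 pairs of members, the median correlation was 0.85 in iCreb5 and 0.17 in tdTomato. These values are a description across 6 libraries, and all genes of a library share its depth and scaling. Low tdTomato values limit the comparison of the groups, since only 28 of the 39 members had at least 10 in every tdTomato library. The part of counting error at low values in the lower tdTomato figures was not tested.

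In tdTomato no library stood so clearly apart. Library 3c was highest for 18 members, 5b for 9 and 6d for 6, and the median deviations ran from −0.36 in 4a to 0.53 in 3c. The median within-group SD of a member was 0.82 in iCreb5 and 0.63 in tdTomato, while that of all genes was 0.31 and 0.35. Without iCreb5 5 and 6, the libraries with the highest members, 31 of the 39 were called higher (3.86% of all genes) and 0 lower (2.98%), and the median log2 change was 1.96. Without tdTomato 3a and 5b, 34 were called higher (3.32%) and 0 lower (2.55%).

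Other ways of fitting the same libraries gave similar counts. With litter as a replicate block, 36 members were called higher (5.13% of all genes) and 0 lower (4.35%). On recovered reads, edgeR called 35 higher (3.83%) and 0 lower (2.81%), and DESeq2 called 37 higher (5.51%) and 0 lower (4.27%). With every gene that had any read fitted, 36 of the 43 members were called higher (1.79%) and 0 lower (1.22%). *Cd163* was the 1 member with a negative change in that fit, −0.59 (limma adjusted p = 0.762).

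**Figure D3:**
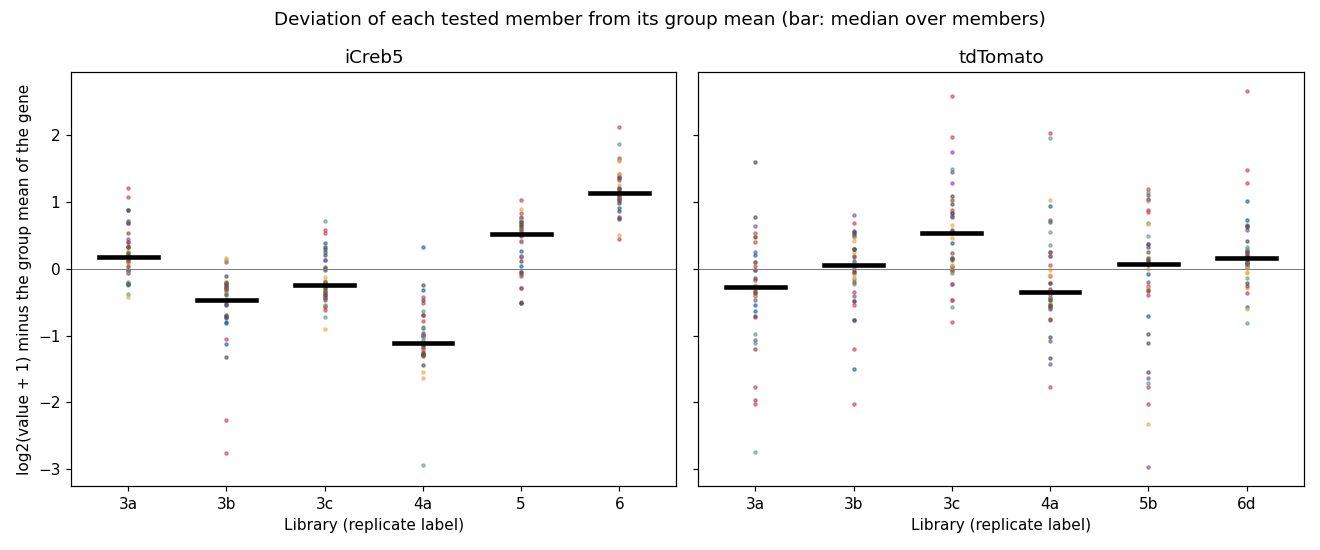
Deviation of each tested member from its group mean, on the log2(value + 1) scale, in each library, with the median marked. In iCreb5 the medians run from −1.11 in 4a to 1.13 in 6, and in tdTomato from −0.36 in 4a to 0.53 in 3c.

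*Ptprc* was compared with each of the other 38 tested members within each group on the log2(value + 1) scale, over 6 libraries, giving 76 relations. In iCreb5 Pearson's r was positive for all 38, with a median of 0.70 and a range of 0.33 to 0.95, and 6 had an exact permutation p under 0.05. None passed after Benjamini-Hochberg adjustment over the 76 (lowest adjusted permutation p = 0.264 for r and 0.106 for Spearman's rank correlation). By rank the closest was *Cd53*, at 1.0 (exact permutation p = 0.00278). By r it was *Adgre1*, with r = 0.95 (exact permutation p = 0.00417) and a rank correlation of 0.94 (exact permutation p = 0.0167). The r of *Adgre1* was 0.96 without the 2 libraries farthest from the *Ptprc* median on that scale, 3b and 4a. *Csf1r* had r = 0.82 (exact permutation p = 0.0306), a rank correlation of 0.77 (exact permutation p = 0.103) and r = 0.47 without those 2 libraries, so its relation rested on them. Over the 38 members, the median r in iCreb5 without 3b and 4a was 0.89, and all 38 stayed positive. In tdTomato the median r was 0.39 (range −0.53 to 0.85) and 29 of 38 were positive, with 3 of the 6 *Ptprc* values tied at 0. There 1 relation, with *Laptm5*, had an exact permutation p under 0.05 (0.0333, adjusted p = 0.346), and without 3c and 6d the median r was 0.16 with 23 positive.

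The libraries also differed in their balance of short and long genes. In library 5 of iCreb5, genes with under 2000 merged exon bases lay above longer genes by 0.42 in median deviation over all genes tested, and by 0.48 over the members. In tdTomato 5b these differences were 0.54 and 0.50, while in iCreb5 3a they were −0.21 and −0.22. Of the 14 short members, 13 were higher in iCreb5 5 than in 3a, as were 13 of the 25 long ones. Library 6 was highest in both classes. The median log2 change between the groups was 2.70 for short members and 1.95 for long ones, against −0.07 and 0.02 over all short and long genes. The part of transcript length in the size of the change was not tested, and the length split was chosen after the values were seen.

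**Figure D4:**
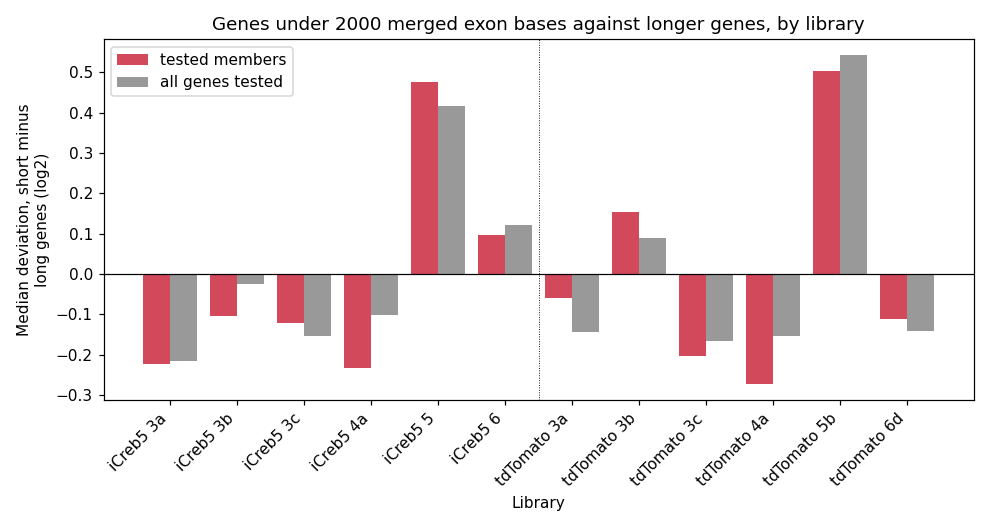
Median deviation of short genes minus that of long genes, in log2 units, for each library, drawn for the members and for all genes tested. Libraries iCreb5 5 and tdTomato 5b stand highest, at 0.48 and 0.50 for the members.

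Further genes of macrophages and related myeloid cells, listed apart from the members, moved in the same direction less uniformly. Of 57 listed and 51 tested, 22 were called higher and 2 lower, against 3.87% and 2.85% of all genes tested. Their median log2 change was 1.70, and some reached the minimum for testing only through the iCreb5 libraries. Among the 25 with a normalised count of at least 10 in every tdTomato library, 9 were called higher. The largest changes were in *Cd84* (12.5-fold, adjusted p = 0.00173), *Hcls1* (11.3-fold, 0.00655), *Nckap1l* (11.0-fold, 0.00217) and *Folr2* (9.89-fold, 0.00193), which encode a SLAM-family receptor, a cortactin-like signalling protein, a WAVE complex subunit and folate receptor beta. Among those that fell was *Maf*, a transcription factor gene (log2 change −0.64, adjusted p = 0.0132). *Tmem119*, used as a microglial marker, and *Cyba*, an oxidase subunit, were the most abundant without a call, at 8449 ± 514 against 7483 ± 982 and 1729 ± 393 against 1873 ± 567. The tdTomato mean of *Tmem119* alone exceeded the highest tdTomato sum over the 43 members, 3334, and the cells it came from were not tested. The Csf1r ligand gene *Csf1* was 748 ± 172 against 826 ± 167, a log2 change of −0.15 with a 95% interval of −0.53 to 0.24.

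Few markers of other blood cells were called. *Cd3e* was at 0 in 11 of 12 libraries, and the B cell gene *Ms4a1* was at 0 in all 12. Limma called no gene in the T and natural killer cell, monocyte, neutrophil, dendritic cell, megakaryocyte and red cell lists, which were pooled on that basis. In this pool of 25 tested markers the 0 follows from the choice, while limma called 3.87% of all genes higher and 2.85% lower. Of the same 25, edgeR called 0, DESeq2 called 2 (*Lck* and *Zbtb46*), and 5 had an unadjusted limma p under 0.05. All 6 tested mast cell genes had positive log2 changes, with a median of 0.93. Summed over the 10 listed, their normalised count was 2803 to 6669 in iCreb5 and 1361 to 4523 in tdTomato. Of the 6, 1 was called higher, *Gata2* (0.81, adjusted p = 0.0335), a haematopoietic transcription factor that endothelium also expresses. On the B cell list of 7 genes, 2 were at 0 in all 12 libraries and 3 were tested. Of the tested 3, only the transcription factor gene *Ebf1* was called higher (0.80, adjusted p = 0.000136), and the cells it came from were not tested. Among 6 tested osteoclast genes, the matrix metalloproteinase gene *Mmp9* fell by 2.09 on the log2 scale (173 ± 59.3 against 719 ± 214, adjusted p = 5.81e-05).

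**Figure D5:**
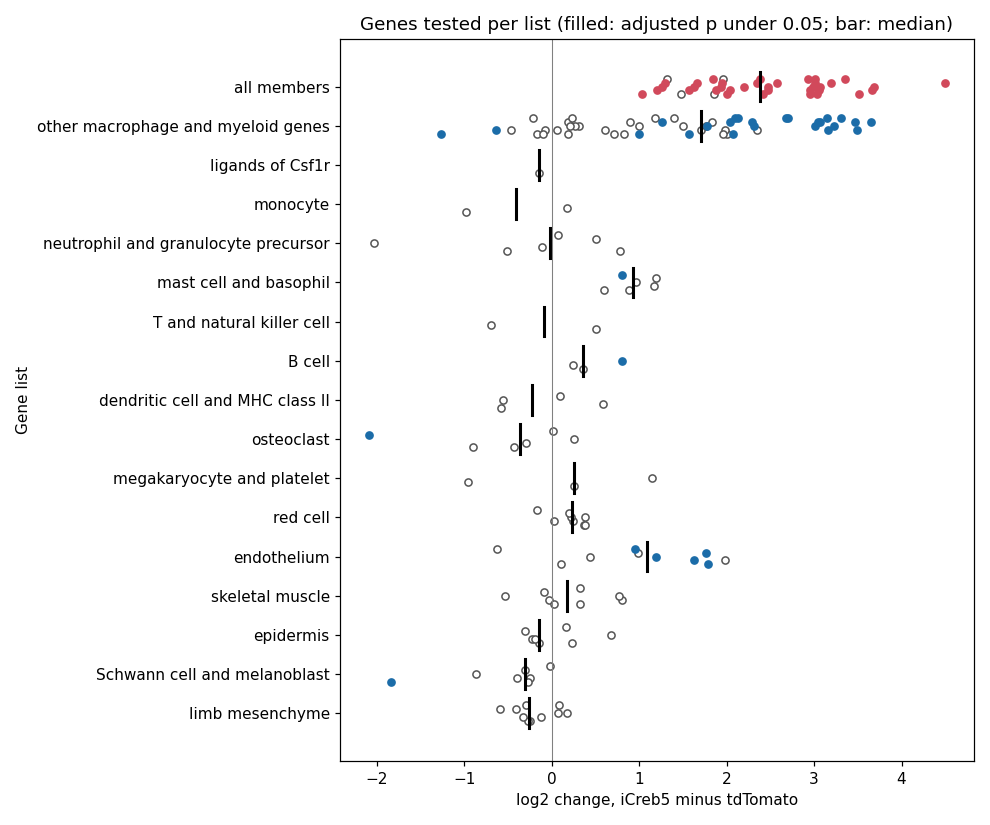
Log2 change of each tested gene, iCreb5 minus tdTomato, for the members and for the lists of other macrophage genes and of other cell types, with the median of each list marked. The members' median is 2.38, that of the other macrophage genes 1.70 and that of the endothelial genes 1.09.

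Endothelial and mast cell markers had the largest positive median changes after the members and the other macrophage genes. The B cell, megakaryocyte, red cell and skeletal muscle lists also had positive medians, from 0.17 to 0.35. Of 10 endothelial genes tested, 5 were called higher and 0 lower, against 3.87% and 2.85% of all genes tested, with a median log2 change of 1.09. The called genes were *Pecam1* (1.79, adjusted p = 0.00154), *Tie1* (1.76, 0.0359), *Cdh5* (1.63, 0.0444), *Kdr* (1.19, 0.0298) and *Tek* (0.95, 0.0124), which encode an adhesion molecule, a cadherin and 3 receptor kinases of vessels. Their summed normalised count over all 10 was 2249 to 4824 in iCreb5 and 1735 to 2469 in tdTomato, and the groups overlapped. Library iCreb5 5, second highest for the macrophage genes, was lowest of its group for all 5. Of the 10 limb mesenchyme markers, 0 were called, with sums of 226156 to 472263 in iCreb5 and 247143 to 431907 in tdTomato. Together with 8 skeletal muscle and 7 epidermal markers, these made 25 genes, pooled from lists without a limma call. The 0 limma calls in the pool follow from that choice, while limma called 3.87% of all genes higher and 2.85% lower. Of the same 25, edgeR and DESeq2 called 0, and 1 had an unadjusted limma p under 0.05. Of 7 tested Schwann cell and melanoblast genes *Sox10* alone was called, at −1.84 (adjusted p = 0.00242). The part of these other cell markers in the members' difference was not tested.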

How the data were processed

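RNA was extracted from sorted cells and made into Nextera XT libraries, per the labels' protocols. The submitters' processing notes name FastQC, STAR, Salmon, DESeq2 and mm10, while strand settings were not given in the sources used. The deposited values are a signal of gene counts divided by size factors, as the authors normalised them. Each value was a whole multiple of its library's smallest value within a relative tolerance of 1e-06 (100.0% of values), so reads could be recovered. A further 8 columns matched no sample here and were not used.

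Genes reaching 10 in 6 or more libraries were fitted with limma 3.58.1 (R 4.3.3; eBayes with trend, two-sided, pseudocount 1) over all 12 libraries, with Benjamini-Hochberg adjustment at 0.05. edgeR 4.0.16 and DESeq2 1.42.0 on recovered reads were alternatives, beside other pseudocounts, filters, scalings, litter as a block and left-out libraries. The fit was tested on simulated data. The labels give a shared litter, which pairs the libraries of litters 4, 5 and 6. Same-litter deviations correlated at 0.154, 0.346 and 0.000309. Exon lengths and coordinates came from GENCODE M21 (mm10) and promoters from RefSeq.

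The members and lists were chosen with earlier results of these data known. Per-library values are given for *Ptprc* and, in each role, for the members with the largest and smallest change and the highest mean. Other lists name up to 4 called genes and the 2 most abundant uncalled ones. *Maf*, *Cpa3*, *Hdc*, *Cd3e*, *Ms4a1*, *Lck*, *Zbtb46* and *Tek* were named after their values were seen, unless that rule also names them. Some genes of these lists are not reported here.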

Additional observations from a re-analysis of the deposited data

Results flagged for a closer look

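Each value below is the gap between a group's highest or lowest library and its nearest neighbour, divided by the whole range of the 6 libraries, which was set against Dixon's critical value of 0.625. Of 136 groups examined, 10 exceeded it, and chance alone flags about 1 in 20 where values are normally distributed. The ratios were taken on normalised counts and not on the log2(value + 1) scale, so that rate need not hold here. In tdTomato, library 5b was highest and apart for *Tyrobp* (0.777), *Cd14* (0.721) and *Ly86* (0.678), with normalised counts of 119, 158 and 347. Library tdTomato 3c was highest and apart for the ARF activator gene *Cyth4* (0.639), for *Cd163* (0.832) and for the non-member *Mmp9* (0.672). Library tdTomato 4a was lowest and apart for *Cd68* (0.773), at 34.9 where the other 5 ranged from 63.2 to 71.5. Among genes of other cell types, *Hdc*, the mast cell histidine decarboxylase, was highest in tdTomato 6d (0.743), and *Cd3e* was above 0 in tdTomato 5b alone (1.0). A group with 1 library above 0 gives 1.0 whatever its value. In iCreb5, library 5 was lowest and apart for the endothelial receptor gene *Tie1* (0.722), at 28.0 against 214 to 286.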

How the results depend on the processing

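The 35 members called higher became 31 to 37 under the settings that kept all litters, and 29 in litter 3 alone and 32 in litters 4 to 6. No member was called lower in any of the 27 settings. Leaving out 1 library at a time gave 33 to 36 calls and a median log2 change of 2.18 to 2.55. With litter as the replicate block 36 members were called (5.13% of all genes higher), *Csf2rb* being added. The edgeR count was 35 (3.83%), that of DESeq2 37 (5.51%), and 34 were called without tdTomato 3a and 5b (3.32%). Without a filter 36 of the 43 were called (1.79% of 31146 genes). The median ranged from 1.96, without iCreb5 5 and 6, to 2.59, in litters 4 to 6. Of 1046 single-gene values, 1007 kept their direction and call, 31 lost the call, 8 gained it and 0 reversed. The same call held in every setting for 28 of the 39 tested members. Calls lost in at least 1 setting were those of *Rac2*, *Irf8*, *Cd53*, *Cybb*, *Ptprc*, *Cyth4*, *Coro1a*, *Adgre1* and *Cx3cr1*, and *Itgb2* was gained with edgeR (0.0439) and DESeq2 (0.0203). The cause was not tested. Depth limits the scarcest members, *Fcgr1*, *Mpeg1*, *Cd163* and *Timd4*.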

Other observations

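*Cpa3*, the mast cell carboxypeptidase gene, was 2321 and 2107 in iCreb5 5 and 6 and 584 to 808 in the other 4 iCreb5 libraries. In tdTomato it was 1394 and 1415 in 5b and 6d and 302 to 393 in the others. Its group means were 1208 ± 785 and 702 ± 545 (SD, n = 6), and it was not called. The macrophage members were high in iCreb5 5 and 6 as well, whereas in tdTomato 5b and 6d their median deviations were only 0.07 and 0.16.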
